A study of Homo sapiens with 6 samples.

Results

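Fatty acid oxidation and peroxisome genes are described here in Hep-3B cells, a human hepatoma line, in which the thioredoxin family gene NXN was knocked down. The members are 41 genes chosen by name: 4 acyl-CoA synthetases, 3 genes of the carnitine shuttle, 6 of the first dehydrogenation step and its electron carriers, 8 mitochondrial enzymes of the later steps, 6 peroxisomal enzymes and transporters, 2 regulators, 1 ketone body enzyme and 11 peroxins. All 41 were found by symbol among the 23406 features of the deposited table, and all 41 passed the filter on low counts that left 14071 features for testing. The study profiled 6 libraries, 3 from cells given a control shRNA (shControl) and 3 from cells given an shRNA against NXN (shNXN). RNA was taken on days 7, 9 and 11, so each group had 1 library per day. The cells of either group carried the label of wild-type genotype and had passed a week of puromycin selection after lentiviral delivery. The label protocols count the days both from shRNA delivery and from the end of selection, and they do not name the shRNA sequence. Nothing states that the days were separate cultures, so p-values measure the spread between libraries of different days.

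Fatty acids are first joined to coenzyme A, and long chains then enter mitochondria through the carnitine shuttle. There each turn of beta-oxidation removes an acetyl unit through a dehydrogenation, a hydration, another dehydrogenation and a thiolytic cleavage, and the electrons pass to the respiratory chain. Peroxisomes shorten very long and branched chains and bile acid precursors, and peroxins build the organelle and import its enzymes. In liver these pathways supply energy and ketone bodies during fasting under the control of the nuclear receptor PPARA.

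The estimated counts summed to between 15349382 and 16332589 per library. NXN, on chromosome 17, measured 181, 138 and 143 CPM (read counts scaled to library size with TMM factors) on days 7, 9 and 11 in shControl cells and 42.7, 47.5 and 39.5 CPM in shNXN cells. The groups did not overlap, and NXN fell from a mean of 154 ± 23.4 CPM to 43.2 ± 4.03 CPM (SD, n = 3), which is -1.83 on the log2 scale with a standard error (SE) of 0.16 (edgeR's quasi-likelihood test, adjusted p = 0.0378). With 3 libraries against 3, an exact permutation test on 1 gene cannot go below a two-sided p of 0.1, which was the value for NXN. The edgeR call of NXN was kept without the shControl library of day 9 or the shNXN library of day 11 and lost without any of the other 4, with adjusted p values from 0.00131 to 0.225. All 10 hepatocyte and hepatoma markers exceeded 1 CPM in every library. Their summed level ran from 14153 to 25343 CPM in shControl and from 8898 to 16551 CPM in shNXN libraries. The list did not move as 1 group: 3 markers (APOA2, SERPINA1 and HNF4A) were higher in shNXN on each day, 2 (AFP and TTR) were lower, and 5 differed between days, among them albumin (ALB) with 9566, 13655 and 6955 CPM in shControl and 1420, 683 and 7250 CPM in shNXN. In the leukocyte list 2 of 5 genes, CD68 and LYZ, exceeded 1 CPM in every library and the sum ran from 171 to 220 CPM in shControl and from 237 to 370 CPM in shNXN, while CD3E was at 0. In the fibroblast list 2 of 5 genes did so, with sums from 4.18 to 7.18 and from 6.68 to 8.76 CPM, and in the endothelial list 0 of the 3 genes present did, with VWF and KDR at 0. The part of these shifts in the results was not tested, and in bulk RNA a lower level per cell and fewer cells with a transcript cannot be told apart.

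Of the 41 genes, 1 was called, at a Benjamini-Hochberg adjusted p under 0.05 over all features tested in edgeR's quasi-likelihood test of shNXN against shControl. It was ABCD3, a peroxisomal acyl-CoA transporter, and it fell. Over all features 477 were called (3.39%), 26 higher (0.185%) and 451 lower (3.21%), so the members' share of 2.44% was near the background. At an unadjusted p under 0.05 there were 17 members, 12 lower and 5 higher, beside 32.9% of all features. The median log2 fold change of the members was -0.14 and that of all features 0.03, with 26 members negative and 15 positive. When the day was entered as a block, which compares shNXN with shControl within each day, 12 members were called. That fit left 2 residual degrees of freedom. ACSL3, ACSL4, ACADM, SCP2, ABCD3, PPARGC1A, PEX2, PEX3 and PEX13 fell, and ACADS, ETFB and PEX6 rose. Over all features 3272 were called in that fit (23.3%), 2389 lower (17.0%) and 883 higher (6.28%), and the members' share was 29.3%. The CPM values of the groups did not overlap for 11 members that were lower in shNXN and 5 that were higher, beside 21.5% and 19.0% of all features. Without the shNXN library of day 11, edgeR called 14 members (34.1%) beside 25.8% of all features, and without any other single library 0 members. The plot of CPM by gene and library shows all 41 genes by role.

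**Figure D1:**
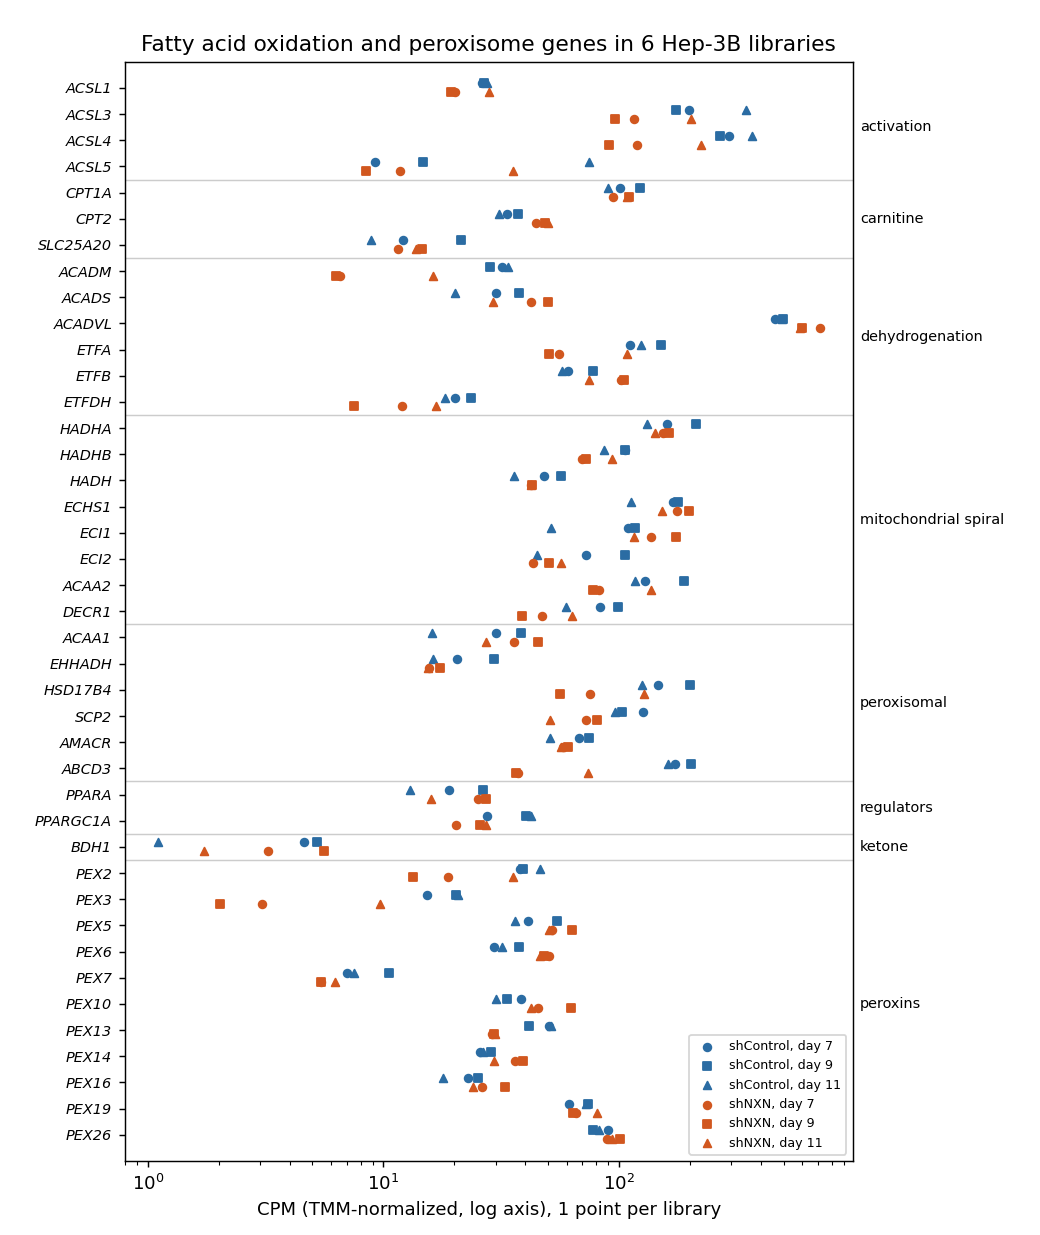
CPM of the 41 genes (log axis) in each of 6 Hep-3B libraries, grouped by role, with blue for shControl, orange for shNXN and a marker for each day. ABCD3, ACADM and PEX3 have the largest log2 differences between the group means, and the shNXN library of day 11 is the one nearest to shControl in each of them.

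The fold changes of the members followed a property that their choice did not use, the share of G and C in the transcript. To show the difference, the last 120 coding bases, stop codon included, are printed for the 3 members of lowest transcript GC content and the 3 of highest, from GENCODE 29 on GRCh38, 5′ to 3′ on the coding strand with G and C in capitals. PEX3 lies at chr6:143450807-143490010 (plus strand), ACSL4 at chrX:109624244-109733403 (minus strand), ABCD3 at chr1:94418455-94518666 (plus strand), PEX6 at chr6:42963870-42979220 (minus strand), PEX14 at chr1:10472288-10630758 (plus strand) and ACADS at chr12:120725735-120740008 (plus strand).
PEX3: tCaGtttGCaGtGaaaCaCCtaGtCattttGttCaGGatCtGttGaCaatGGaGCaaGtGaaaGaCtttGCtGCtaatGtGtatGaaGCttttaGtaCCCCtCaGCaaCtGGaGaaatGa
ACSL4: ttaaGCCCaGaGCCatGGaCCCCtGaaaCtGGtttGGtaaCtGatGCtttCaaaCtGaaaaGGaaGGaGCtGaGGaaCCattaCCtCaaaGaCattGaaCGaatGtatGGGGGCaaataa
ABCD3: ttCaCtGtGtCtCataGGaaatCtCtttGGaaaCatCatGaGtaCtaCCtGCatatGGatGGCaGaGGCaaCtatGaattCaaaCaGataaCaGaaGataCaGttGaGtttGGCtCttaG
PEX6: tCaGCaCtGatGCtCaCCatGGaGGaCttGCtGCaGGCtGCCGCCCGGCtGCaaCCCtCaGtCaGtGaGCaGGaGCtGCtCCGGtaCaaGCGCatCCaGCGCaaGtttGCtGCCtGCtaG
PEX14: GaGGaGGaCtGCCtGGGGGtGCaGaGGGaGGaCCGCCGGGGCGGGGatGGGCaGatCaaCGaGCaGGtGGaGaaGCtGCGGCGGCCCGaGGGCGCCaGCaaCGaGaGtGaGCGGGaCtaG
ACADS: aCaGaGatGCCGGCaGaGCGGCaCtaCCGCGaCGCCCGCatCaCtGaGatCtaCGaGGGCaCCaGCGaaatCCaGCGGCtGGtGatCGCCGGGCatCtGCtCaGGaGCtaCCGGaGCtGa
The first 3 stretches held 49, 53 and 47 G or C bases of 120, and the last 3 held 74, 85 and 77. Over the whole transcript the GC content was 35.4% in PEX3, 37.4% in ACSL4, 37.7% in ABCD3, 61.8% in PEX6, 61.9% in PEX14 and 64.6% in ACADS.

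Log2 fold changes were higher in members of higher transcript GC content, with a Spearman correlation of 0.89 across the 41 genes. The same correlation was 0.79 across the 12740 tested features with a known GC content, so the members followed the trend of all features. Genes share the 6 libraries and are not independent replicates, and no test is attached to these correlations. The members had a median GC content of 46.5% and all tested features 48.7%. Of the 25 members below that median of all features, 22 had a negative log2 fold change and 9 fell in the fit with the block. Of the 16 members above it, 12 had a positive log2 fold change and 3 rose in that fit. The shares of all features in the same GC ranges were not computed, so these counts do not set the members apart. The libraries differed in GC trend, measured by the correlation between a feature's deviation from its mean over the 6 libraries and its GC content. This correlation was -0.63, -0.37 and -0.72 in the shControl libraries of days 7, 9 and 11. It was 0.72, 0.76 and 0.10 in the shNXN libraries. The values are relative to the mean of the same 6 libraries, so positive values in some libraries bring negative ones in others. A value near 0 therefore does not show that a library had no trend. The trend differed between the groups and between days, and whether it came from the cells or from the library preparation cannot be told apart here. The correlation with the GC content of the promoter (250 bases before to 50 after the start, RefSeq on GRCh38.p14, found for 35 members) was -0.25 in the members and 0.16 in all features. With transcript length it was -0.20 in the members and -0.28 in all features.

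After correction of each library for its GC trend, 0 of the 41 members were called by edgeR's quasi-likelihood test, beside 5 of all features (0.0355%, split into 0.00711% higher and 0.0284% lower), and 3 members, ACADM, ABCD3 and ETFB, had an unadjusted p under 0.05, beside 16.4% of all features. With the day block and the GC correction together 0 members were called, beside 39 of all features (0.277%), and 6 members had an unadjusted p under 0.05, beside 20.8% of all features. Either share of members (7.32% and 14.6%) was below that background. The median of the members moved from -0.14 to -0.02, 32 of 41 members had a smaller absolute log2 fold change, and 11 changed sign. ACSL3, ACSL4, SCP2, PPARGC1A and PEX13 are described by role. Of the other 6, EHHADH moved from -0.45 to 0.29, AMACR from -0.14 to 0.34 and ACSL1 from -0.25 to 0.05, while ECHS1 moved from 0.19 to -0.17, PEX14 from 0.38 to -0.02 and PEX16 from 0.33 to -0.05. NXN kept a log2 fold change of -2.20 under the GC correction (adjusted p = 0.00939 from edgeR). The correction takes out every group difference that tracks GC content, from whatever source.

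**Figure D2:**
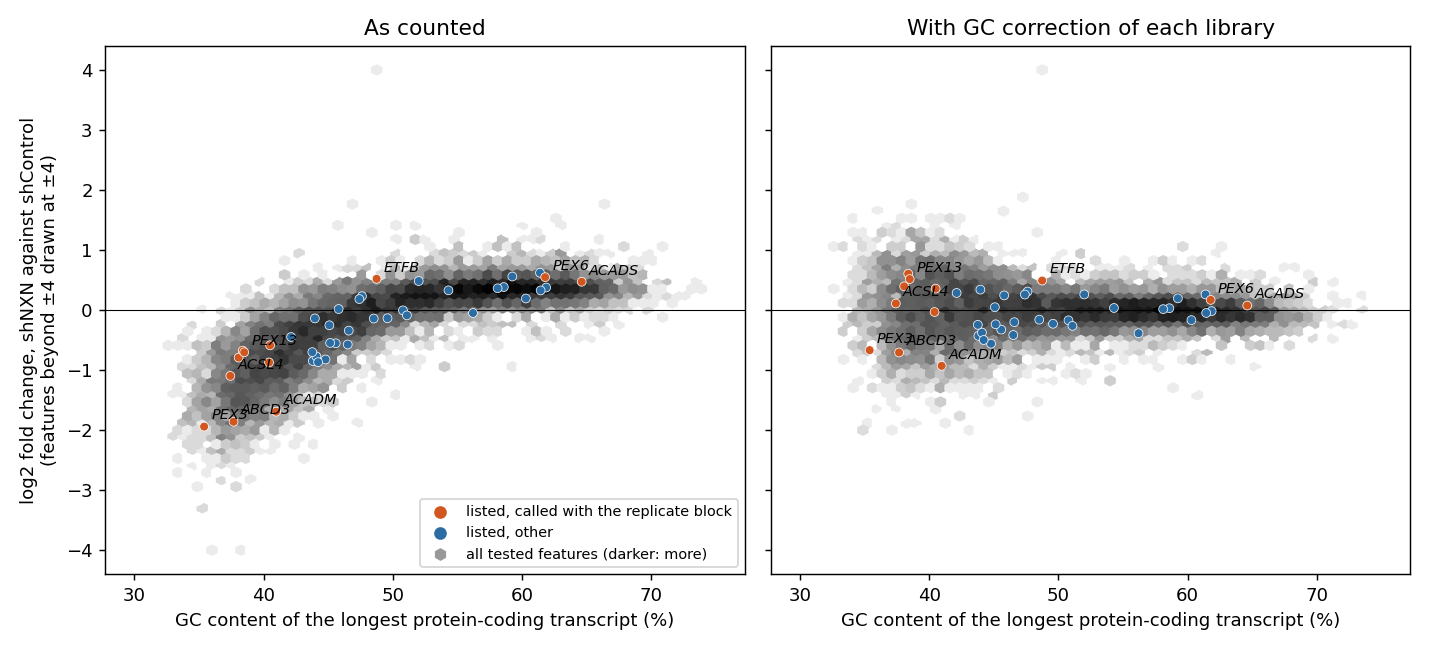
Log2 fold change of shNXN against shControl against the GC content (%) of the longest protein-coding transcript, before (left) and after (right) removing each library's GC trend, with all tested features in grey, members called with the day block in orange and other members in blue. On the left the members follow the curve of all features from ABCD3 and PEX3 at low GC to ACADS and PEX6 at high GC, and on the right the slope is gone.

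The acyl-CoA synthetases join coenzyme A to fatty acids before any other step. ACSL4, which prefers polyunsaturated chains such as arachidonic acid, measured 292, 268 and 368 CPM on days 7, 9 and 11 in shControl and 120, 90.8 and 223 CPM in shNXN cells. The shNXN libraries were all below the lowest shControl library, with day 11 the nearest. Its log2 fold change was -1.10 (SE 0.33 with an edgeR adjusted p of 0.083) and, with the day block, -1.19 (adjusted p = 0.0195). On FPKM, which divides by transcript length, ACSL4 measured 77.9, 71.2 and 91.4 in shControl and 104, 79.2 and 101 in shNXN cells, each shNXN value being above that of the same day. The count call of ACSL4 therefore had no counterpart on the FPKM scale, where limma gave 0.24 on log2(FPKM + 1) with an adjusted p of 0.346. A fixed length per gene divides out between libraries, and how the FPKM values were made is not given. ACSL3, a synthetase of the endoplasmic reticulum and lipid droplets, measured 198, 174 and 346 CPM in shControl and 116, 96.1 and 203 CPM in shNXN cells. It was higher on day 11 than on the other days in either group, so the groups overlapped although shNXN was lower on every day. Its log2 fold change was -0.79 (SE 0.36 with an edgeR adjusted p of 0.169) and -0.80 with the day block (SE 0.10, adjusted p = 0.0147). After GC correction with the block ACSL3 stood at 0.42 (adjusted p = 0.151) and ACSL4 at 0.11 (adjusted p = 0.668). ACSL1 and ACSL5 had log2 fold changes of -0.25 and -0.82 with adjusted p values of 0.384 and 0.516 from edgeR. ACSL5 measured 74.7 CPM in the shControl library of day 11 and at most 14.7 CPM on the other shControl days.

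The carnitine shuttle moves long-chain acyl groups across the mitochondrial membranes, and 0 of its 3 genes were called with or without the block. CPT2, the transferase of the inner membrane, measured 33.6, 37.4 and 30.9 CPM in shControl and 44.3, 48.4 and 49.8 CPM in shNXN cells. The groups did not overlap, at 34.0 ± 3.29 and 47.5 ± 2.84 CPM (SD, n = 3), with a log2 fold change of 0.48 (SE 0.15 with an edgeR adjusted p of 0.0918, or 0.0545 with the day block). After GC correction CPT2 stood at 0.26. CPT1A, the transferase of the outer membrane that sets the rate of entry, was at 104 ± 16.8 and 104 ± 8.58 CPM (SD, n = 3). SLC25A20, the carnitine carrier, measured 12.1, 21.3 and 8.83 CPM in shControl and 11.5, 14.6 and 13.7 CPM in shNXN cells. The shNXN values lay within the range of shControl, with a log2 fold change of -0.09 (SE 0.34 with an edgeR adjusted p of 0.867).

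The acyl-CoA dehydrogenases open each turn of beta-oxidation, and the electron-transfer flavoprotein carries the electrons away. ACADM, the medium-chain enzyme, measured 31.9, 28.3 and 33.7 CPM in shControl and 6.57, 6.31 and 16.2 CPM in shNXN cells. The shNXN libraries of days 7 and 9 were the lowest and that of day 11 lay between them and shControl. The means were 31.3 ± 2.73 and 9.69 ± 5.62 CPM (SD, n = 3), which differ by -1.69 on the log2 scale (SE 0.39 with an edgeR adjusted p of 0.0575), and it fell with the day block (-1.82, adjusted p = 0.0207). ACADM kept the largest difference among the members after GC correction, -0.96 with the block (adjusted p = 0.0909 from edgeR), and it was lower on each day in the corrected values. ACADS, the short-chain enzyme, measured 30.1, 37.5 and 20.2 CPM in shControl and 42.4, 50.1 and 29.2 CPM in shNXN cells. Each shNXN library was above the shControl library of its day, while the groups overlapped. The log2 fold change was 0.47 (SE 0.29 with an edgeR adjusted p of 0.283), and ACADS rose with the day block (0.48, adjusted p = 0.0483). With the GC correction added it stood at 0.07 (adjusted p = 0.793). ACADVL, the very-long-chain enzyme and the most abundant member, measured 459, 497 and 494 CPM in shControl and 711, 597 and 584 CPM in shNXN cells. The groups did not overlap, and the adjusted p from edgeR was 0.0995 (log2 fold change 0.38) and 0.0674 with the block. After GC correction with the block ACADVL stood at 0.03 (adjusted p = 0.914).

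The subunits of the electron-transfer flavoprotein stood on opposite sides of 0. ETFB, the beta subunit, measured 60.8, 77.6 and 57.5 CPM in shControl and 102, 105 and 74.5 CPM in shNXN cells. Its shNXN library of day 11 lay below the shControl library of day 9, so the groups overlapped, and the log2 fold change was 0.52 (SE 0.19 with an edgeR adjusted p of 0.121). ETFB rose with the day block (0.52, adjusted p = 0.0425) and stood at 0.48 after GC correction with the block (adjusted p = 0.135). That correction used 48.7% GC, from its longest protein-coding transcript of 3551 bases, which need not be the one expressed. In the shControl library of day 7 its FPKM of 83.2 exceeded its CPM of 60.8, which a length of 3551 bases alone would not give. FPKM exceeded CPM in that library for other members too, as for ETFA (133 against 111) and SCP2 (129 against 126). ETFA, the alpha subunit, measured 111, 151 and 124 CPM in shControl and 55.7, 50.3 and 109 CPM in shNXN cells. The groups did not overlap, and the adjusted p from edgeR was 0.116 (log2 fold change -0.85) and 0.0615 with the block. ETFDH, which hands the electrons to ubiquinone, stood at -0.77 (edgeR adjusted p of 0.135). ETFA and ETFDH stood at -0.44 and -0.39 with the block and the GC correction (adjusted p = 0.246 and 0.398 from edgeR).

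The 8 mitochondrial enzymes of the later steps had log2 fold changes from -0.70 to 0.62, and 0 of 8 were called with or without the block. ECI1, an isomerase for unsaturated chains, had the highest value, with 110, 117 and 51.3 CPM in shControl and 137, 174 and 115 CPM in shNXN cells. Each shNXN library exceeded the shControl library of its day, and the shControl library of day 11 was the lowest of all. The log2 fold change was 0.62 (SE 0.32 with an edgeR adjusted p of 0.211, or 0.0504 with the day block). DECR1, a reductase for unsaturated chains, had the lowest value, with 83.3, 99.5 and 59.4 CPM in shControl and 47.0, 38.7 and 63.4 CPM in shNXN cells. It was lower in shNXN on days 7 and 9 and not on day 11, with a log2 fold change of -0.70 (SE 0.26 with an edgeR adjusted p of 0.117). ECI1 and DECR1 stood at 0.31 and -0.21 with the block and the GC correction (adjusted p = 0.383 and 0.594 from edgeR). HADHA and HADHB, the subunits of the trifunctional protein, stood at -0.14 and -0.34, and HADH, the dehydrogenase for shorter chains, at -0.14. The hydratase ECHS1 stood at 0.19, the isomerase ECI2 at -0.57 and the thiolase ACAA2 at -0.55.

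Among the peroxisomal enzymes and transporters 5 of 6 had a negative log2 fold change, beside 6842 of 14071 features. After GC correction 2 of the 6 were negative and 4 positive, with a median of 0.15. ABCD3, the transporter of long and branched acyl-CoA into peroxisomes, measured 174, 203 and 161 CPM in shControl and 37.2, 36.7 and 74.2 CPM in shNXN cells. The shNXN libraries lay clear of the shControl ones, and day 11 stood at the upper end of shNXN. Its mean of 179 ± 21.2 CPM fell to 49.4 ± 21.5 CPM (SD, n = 3), a difference of -1.86 on the log2 scale (SE 0.30 with an edgeR adjusted p of 0.0452) and -1.94 with the day block (adjusted p = 0.0184). It was also the only member called on log2(FPKM + 1), at -1.57 (adjusted p = 0.0472 from limma), beside 2.04% of all features. After GC correction ABCD3 stood at -0.71 (adjusted p = 0.186 from edgeR) and with the block at -0.67 (adjusted p = 0.133). The call was lost when any of 5 libraries was left out and kept without the shNXN library of day 11, with log2 fold changes from -2.28 to -1.68 (adjusted p from 0.000959 to 0.225 in edgeR). SCP2, which encodes a sterol carrier protein and a peroxisomal thiolase, measured 126, 103 and 96.5 CPM in shControl and 72.7, 80.4 and 50.7 CPM in shNXN cells. The groups were separate, and here the day 11 library was the lowest of shNXN. Its log2 fold change was -0.68 (SE 0.21 with an edgeR adjusted p of 0.0859), and it fell with the day block (-0.69, adjusted p = 0.0332). With the GC correction added it stood at 0.49 (adjusted p = 0.254). That correction used 38.4% GC, from its longest protein-coding transcript. By its longest transcript of any type, at 43.2% GC, the sign of SCP2 did not turn. HSD17B4, a bifunctional enzyme of hydration and dehydrogenation, measured 147, 201 and 125 CPM in shControl and 75.6, 56.3 and 127 CPM in shNXN cells, so that shNXN was lower on days 7 and 9 and not on day 11. Its adjusted p was 0.121 from edgeR at a log2 fold change of -0.87. The other bifunctional enzyme EHHADH stood at -0.45, the racemase AMACR at -0.14 and the thiolase ACAA1 at 0.36.

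The regulators and the ketone enzyme were among the least abundant members. PPARGC1A, a coactivator of PPARA and of mitochondrial genes, measured 27.5, 40.5 and 42.4 CPM in shControl and 20.4, 25.7 and 27.4 CPM in shNXN cells. The highest shNXN library almost reached the lowest shControl library, with a log2 fold change of -0.59 (SE 0.23 with an edgeR adjusted p of 0.129). PPARGC1A fell with the day block (-0.57, adjusted p = 0.0397), and with the GC correction added it stood at 0.35 (adjusted p = 0.317). PPARA itself measured 18.9, 26.5 and 13.0 CPM in shControl and 25.3, 27.4 and 16.0 CPM in shNXN cells. The groups overlapped (log2 fold change 0.23, adjusted p = 0.626 from edgeR). BDH1, which interconverts the ketone bodies acetoacetate and beta-hydroxybutyrate, measured 4.59, 5.23 and 1.10 CPM in shControl and 3.23, 5.58 and 1.74 CPM in shNXN cells. The days differed more than the groups, and the log2 fold change was -0.05 (SE 0.63 with an edgeR adjusted p of 0.963).

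Of the 11 peroxins 0 were called without the block, and with it PEX2, PEX3 and PEX13 fell and PEX6 rose. PEX3, a membrane peroxin needed to form peroxisomes, measured 15.3, 20.4 and 20.8 CPM in shControl and 3.04, 2.02 and 9.67 CPM in shNXN cells. All shNXN values were below shControl, and the 3 shNXN values spread widely. Its log2 fold change was the lowest of the members, -1.94 (SE 0.56 with an edgeR adjusted p of 0.0781), and -2.20 with the block (adjusted p = 0.031). PEX19, the chaperone that works with PEX3 on membrane proteins, stood at 0.02 (adjusted p = 0.947 from edgeR), and PEX16, another membrane peroxin, at 0.33. PEX13 sits in the docking complex for import receptors and measured 50.5, 41.5 and 51.7 CPM in shControl and 29.0, 29.5 and 29.7 CPM in shNXN cells. The shNXN libraries were close to each other, at 29.4 ± 0.356 CPM against 47.9 ± 5.59 CPM (SD, n = 3), with a log2 fold change of -0.70 (SE 0.16 with an edgeR adjusted p of 0.0563, or 0.0291 with the day block). Its docking partner PEX14 stood at 0.38 (adjusted p = 0.177 from edgeR), and the import receptors PEX5 and PEX7 at 0.33 and -0.55.

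The peroxins that recycle the import receptors by ubiquitination and extraction also stood on opposite sides of 0. PEX2, a RING-type ubiquitin ligase subunit, measured 38.2, 39.2 and 46.4 CPM in shControl and 18.9, 13.3 and 35.4 CPM in shNXN cells. The groups did not overlap, and the day 11 library came close to shControl. The log2 fold change was -0.87 (SE 0.35 with an edgeR adjusted p of 0.138) and -0.98 with the block (adjusted p = 0.0457). PEX10, another subunit of the same ligase, stood at 0.56 (SE 0.20 with an edgeR adjusted p of 0.116). PEX6, an ATPase that extracts the receptors, measured 29.5, 37.7 and 31.8 CPM in shControl and 50.6, 47.9 and 46.1 CPM in shNXN cells. All shNXN libraries were above shControl, at 48.2 ± 2.26 against 33.0 ± 4.21 CPM (SD, n = 3), with a log2 fold change of 0.55 (SE 0.16 with an edgeR adjusted p of 0.0796, or 0.0471 with the day block). PEX26, its membrane anchor, stood at 0.18 (adjusted p = 0.347 from edgeR). After GC correction with the block PEX3 stood at -0.68, PEX2 at -0.05, PEX13 at 0.47 and PEX6 at 0.17, with adjusted p values of 0.372, 0.896, 0.223 and 0.526 from edgeR. In the same fit PEX10 stood at 0.19 (adjusted p = 0.567).

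By day, with 1 library per group and no test, the 41 members had median log2 differences of -0.23, -0.40 and 0.15 on days 7, 9 and 11. Over all features it was 0.00, 0.00 and 0.07. The members were lower in 26 of 41 genes on day 7, in 26 on day 9 and in 14 on day 11. In all, 13 genes were lower on each day, 13 were higher on each day and 15 changed sign, beside 32.6% of all features that were lower and 35.8% that were higher on each day. Of the 15, 11 were lower on days 7 and 9 and higher on day 11, among them HADHA, HADHB, HADH, ECI2, ACAA2 and DECR1. Of the 13 that were lower on each day, 10 had their smallest difference on day 11. ABCD3 differed by -2.22, -2.46 and -1.12 and PEX3 by -2.29, -3.25 and -1.10 on the log2 scale. The difference followed transcript GC content on every day, with Spearman correlations of 0.83, 0.82 and 0.87 in the members and 0.75, 0.68 and 0.73 in all features. After GC correction the medians by day were -0.02, -0.14 and 0.14, and 4 members were lower and 10 higher on each day. The shares of all features after this correction are not given, so these counts have no background beside them. The change of the difference with day, tested as an interaction in edgeR with day as a number, called 0 of 41 members and 0 of all features (0.0%), and 0 members and 152 features (1.08%) had an unadjusted p under 0.05. This test had 2 residual degrees of freedom. Day 11 set against days 7 and 9 called 0 members and 5 features (0.0355%), and 12 members had an unadjusted p under 0.05 in it, all with a higher difference on day 11, beside 13.4% of all features. Of those 1888 features, 1708 also had a higher difference on day 11 and 180 a lower one. Without both day 11 libraries, 18 members were called by edgeR, 15 lower and 3 higher, beside 31.8% of the features tested (23.8% lower, 7.99% higher).

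**Figure D3:**
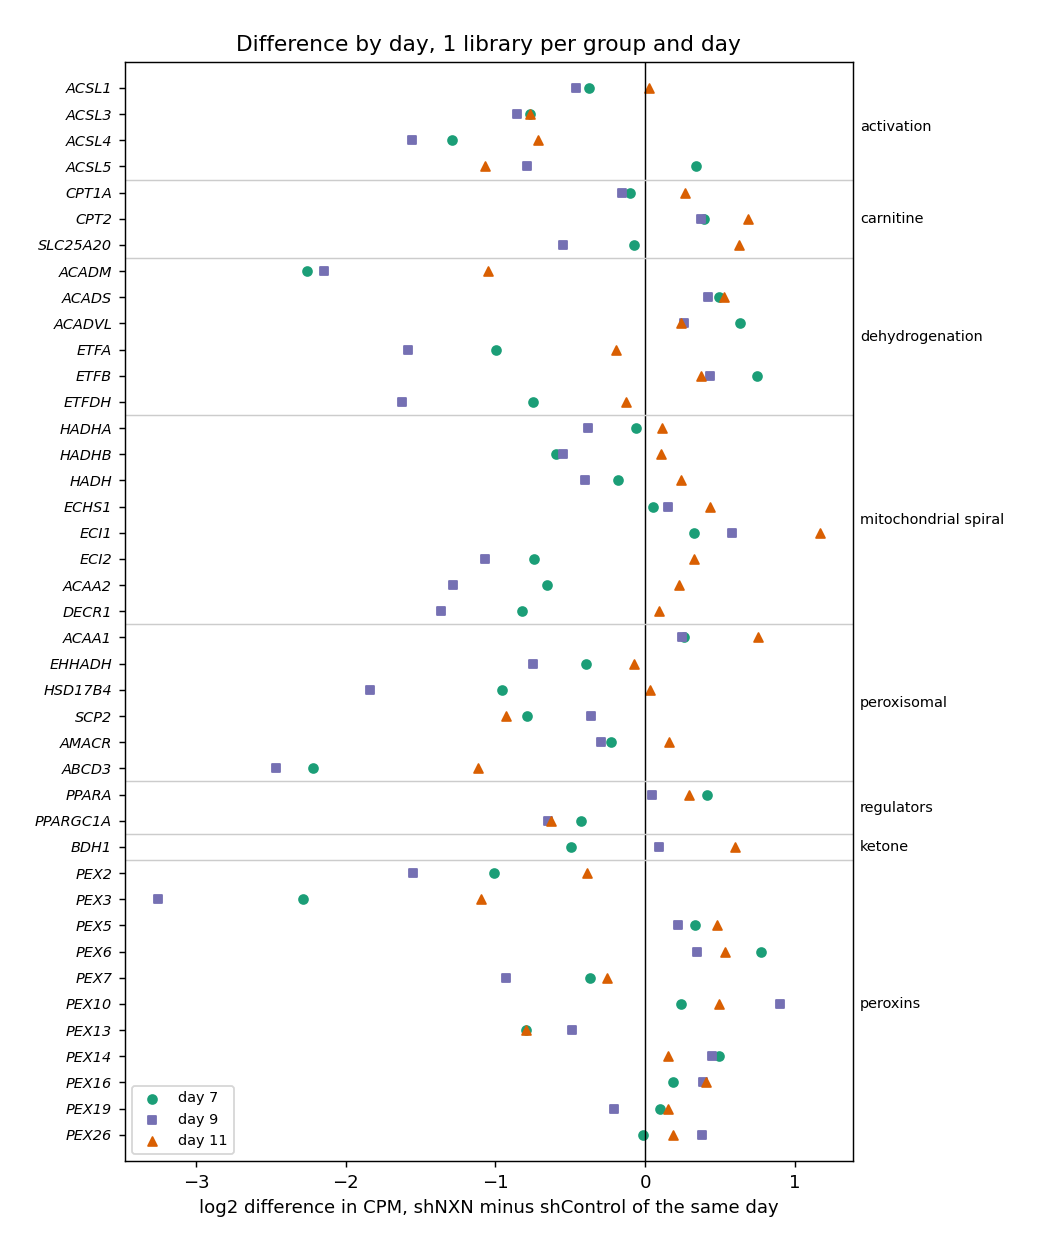
Log2 difference in CPM between the shNXN and the shControl library of the same day for the 41 genes, 1 point per day (no error, 1 library per group and day). The points of days 7 and 9 lie mostly left of 0 and those of day 11 nearer to or right of it, with medians of -0.23, -0.40 and 0.15.

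The order of levels between genes was taken from FPKM in shControl cells. ACADVL was highest at 385 ± 38.4 FPKM, followed by HSD17B4 at 174 ± 140 and ETFA at 159 ± 40.1 FPKM (SD, n = 3). The large SD of HSD17B4 came from the day 9 library, at 334 FPKM against 114 and 74.0. On counts the excess of that library was smaller, with 147, 201 and 125 CPM on days 7, 9 and 11. SCP2, ECI1, ECHS1 and ACSL3 also exceeded 100 FPKM, 7 genes in all, the median of the members was 27.3 FPKM, and BDH1 was lowest at 4.14 ± 3.60. In 37 of 40 neighbouring pairs of this order the means lay within 1 SD, so the order of most neighbours was not resolved. PPARA (6.03 ± 2.25 FPKM), PEX7, EHHADH and PPARGC1A stood just above BDH1.

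Fold changes on FPKM and on counts differed for some members. A fixed transcript length does not enter a fold change, and the reason for the differences was not tested. Of the 41, 32 had the same sign on both scales, 9 were lower on counts and higher on log2(FPKM + 1), and 0 were the reverse. The 9 were ACSL1, ACSL4, CPT1A, SLC25A20, ECI2, EHHADH, AMACR, BDH1 and PEX7. The median of the members was 0.22 on log2(FPKM + 1) and that of all features 0.13, against -0.14 and 0.03 on counts, so the median of all features was 0.10 higher on FPKM. Single genes moved either way, as PEX2 from -0.87 to -1.18. DESeq2 called 10 members, 7 lower and 3 higher, beside 23.5% of all features (16.8% lower, 6.74% higher). The plot of the 12 genes called with the block sets these values side by side for 4 fits.

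A second list held 89 other genes of fatty acid oxidation, ketone bodies and peroxisomes, of which 73 passed the filter. In edgeR 3 were called, all lower: BAAT, CROT and CD36. With the day block 17 were called, 10 lower and 7 higher, which is 23.3% beside 23.3% of all features. BAAT, which conjugates bile acids with amino acids in peroxisomes, measured 35.9, 30.2 and 23.9 CPM in shControl and 4.69, 4.29 and 8.06 CPM in shNXN cells. All shNXN libraries were below shControl, and BAAT fell by 2.40 on the log2 scale (SE 0.31 with an edgeR adjusted p of 0.0395). CROT, the peroxisomal transferase that hands shortened chains to carnitine, measured 21.4, 22.8 and 12.7 CPM in shControl and 5.84, 4.84 and 6.64 CPM in shNXN cells. It fell by 1.71 on the log2 scale (SE 0.29 with an edgeR adjusted p of 0.0452). CD36, a fatty acid transporter of the cell surface, was close to the detection limit, with 36, 48 and 46 counts in shControl and 8, 4 and 11 in shNXN libraries. It fell by 2.48 on the log2 scale (SE 0.42 with an edgeR adjusted p of 0.0452). Of the genes that rose with the block, PXMP4, a peroxisomal membrane protein, stood at 0.68 (edgeR adjusted p of 0.0395). ACACB, the acetyl-CoA carboxylase whose product restrains CPT1A, had 0.86 (adjusted p = 0.0289). Without the shNXN library of day 11 edgeR called 18 of these genes (24.7%) beside 25.8% of all features, without the shControl library of day 9 it called 1 (BAAT) beside 1.73%, and without any other single library 0. With the GC correction 0 of the 73 genes were called by edgeR, and BAAT, CROT and CD36 stood at -1.60, -0.78 and -1.62. The Spearman correlation between log2 fold change and transcript GC content was 0.82 across these 73 genes.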

How the data were processed

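RNA sequencing libraries of Hep-3B cells were prepared with a SMARTER mRNA-Seq kit, per the labels. The authors deposited an estimated count per feature and library and, in a second table, FPKM values. The aligner, counter and annotation are not given in the sources used here. The submitters' processing notes list only mouse builds (GRCm38, mm10), although the features carry human Ensembl identifiers. Between 15.1% and 18.8% of the features per library had estimated counts that were not whole, as did 14 of the 41 members in at least 1 library, so their reads may be shared with paralogs or overlapping genes. There were 0 columns without a sample.

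Rounded counts entered edgeR 4.0.16 under R 4.3.3 (TMM, filterByExpr, quasi-likelihood test, Benjamini-Hochberg adjustment over 14071 features), with DESeq2 1.42.0 and limma 3.58.1 on log2(FPKM + 1) as alternatives. The test was checked on simulated data that held no day effect and no GC trend, so that check does not cover either of them. The count depth per library limits precision for the least abundant genes. Replicates of a group differed by more than sampling noise (chi-square per gene 20.1 to 77.8). Replicate numbers follow the day, and libraries of the same day deviated together (correlations 0.30, 0.31 and 0.45, against -0.37 to 0.15 between days). Deviations were taken from the mean of each group's 3 libraries, so positive values within days push those between days down. The day served as the replicate block in an alternative fit, while the main fit had no block. For the GC correction, each library's deviations were smoothed by a natural spline (5 degrees of freedom) over the GC content of the longest protein-coding GENCODE 29 transcript, which was known for 90.5% of the tested features and all members and need not be the transcript expressed. Of 20314 Ensembl identifiers 19433 had a symbol. Genes are printed in full where called with or without the block, or where they had the highest or lowest fold change of a role without a call. For the other pathway genes the 3 smallest p in each direction are named among those called, except 1 that is not reported here. Other genes are given because all 41 members are accounted for. Members and lists were chosen with earlier results of these data known. Other experiments of the study were not analysed here.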

Additional observations from a re-analysis of the deposited data

How the results depend on the processing

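The calls depended on the fit. For all features (477 called), the members (1) and the other pathway genes (3), the counts called were 3311, 10 and 19 with DESeq2, 3272, 12 and 17 with the replicate block, 5, 0 and 0 with the GC correction, 39, 0 and 0 with both, and 4519, 18 and 26 without both day 11 libraries. The features and members called were 826 and 2 with RLE factors, 929 and 3 with library size only, 818 and 2 with no filter. Limma on log2(FPKM + 1) called 287 features, and on log2(FPKM + 0.1) 66 features, 0 members and 0 other genes. It moved the median of the members from -0.14 to 0.22 and 0.24. With GC content from the longest transcript of any type, an alternative chosen after seeing the data, 5 features, 0 members and 0 other genes were called, and with the block 140 features and 1 other gene. That setting also called 1 member, CPT2, at 1.62 (edgeR adjusted p of 0.037, against 0.26 and 0.318 by the protein-coding transcript), whose longest transcript is a retained-intron form. Leaving out 1 library gave 0 to 3706 features, 0 to 14 members, 0 to 18 other genes, a median of -0.24 to 0.01 and an NXN log2 fold change of -1.90 to -1.67. The highest counts were those without shNXN replicate 3, while 248 features were called without shControl replicate 2 and 0 features without any of the other 4. For the change with day, 5 features were called with day 11 against days 7 and 9 and 1 with no filter, and 0 members in any. The cause of these shifts was not tested.

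Among the genes printed in full, signs turned as follows, in the order GC correction, GC correction with the block, and the same by the longest transcript of any type: ACSL3 0.40, 0.42, 0.35 and 0.37, ACSL4 0.11, 0.11, 0.061 and 0.055, PPARGC1A 0.36, 0.35, 0.32 and 0.32, and PEX13 0.52, 0.47, 0.47 and 0.43. SCP2 turned to 0.61 and 0.49 with the first 2. On log2(FPKM + 1) and log2(FPKM + 0.1), ACSL4 was at 0.24 and 0.24, SLC25A20 at 0.0089 and 0.019 and BDH1 at 0.39 and 0.49. BDH1 was at 0.018 with no filter and 0.031 with the replicate block, and the values without 1 library ran from -0.55 to 0.37 for BDH1 and from -0.28 to 0.37 for SLC25A20.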
